A study of Mus musculus with 6 samples.

Results

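The Slc25 genes encode the mitochondrial carrier family, and they were compared between pancreatic islets of Ffar3 knockout (KO) and wild-type (WT) mice. All rows whose symbol was Slc25a followed by a number were taken. There were 44 such rows among 23179, and 33 of them averaged at least 1 FPKM across the 6 libraries, the level from which rows were tested. FPKM is a fragment count per transcript length, so levels can be set side by side between genes within a library; how the deposited values were scaled between libraries is not stated. Both groups were male C57BL/6J mice aged 10 to 14 weeks: 3 libraries from Ffar3-/- mice and 3 from wild-type mice, each made from islets pooled from 2 pancreata. Ffar3 encodes a receptor of short-chain fatty acids. The labels do not say how the allele was made or whether controls were littermates, and pooling means that a library is no single animal. Treatment is not mentioned for either group.

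Mitochondrial carriers are small proteins of the inner mitochondrial membrane that exchange nucleotides, phosphate, amino acids, carboxylates, cofactors and metal ions between cytosol and matrix. In beta cells they link glucose oxidation to insulin release: ADP/ATP carriers export the ATP that closes potassium channels, the aspartate-glutamate and oxoglutarate carriers move reducing equivalents, and the citrate carrier exports carbon. A few members sit in other membranes, such as Slc25a17 in peroxisomes and Slc25a46 in the outer mitochondrial membrane.

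Facts of the libraries bear on what follows. Ffar3 was listed at 0, 0 and 0.105 FPKM in KO replicates 1 to 3, against 4.69, 5.26 and 6.68 FPKM in WT replicates 1 to 3, so the targeted gene matched all 6 labels. The islet markers of alpha and delta cells were present in every library, at summed levels of 7204 to 13581 FPKM and 2581 to 4639 FPKM in KO against 19833 to 24039 FPKM and 5095 to 5373 FPKM in WT. The 10 beta cell markers, of which Ins2 was listed at 0 in every library, summed to 35819, 72923 and 81201 FPKM in the KO libraries, in replicate order, against 37151 to 38915 FPKM in WT. Of the 9 tested, 3 fell and 0 rose by limma, namely the transcription factor genes Mafa (log2 difference -1.63, adjusted p = 0.0044) and Nkx6-1 (-0.66, adjusted p = 0.0068) and the peptide gene Ucn3 (-0.86, adjusted p = 0.0028). These 3 also fell in KO replicate 1 alone, and the part of beta cell number or state in the carriers' differences was not tested. Transcripts of 27 acinar markers, made by the digestive tissue around the islets, summed to 26278, 262887 and 559331 FPKM in the KO libraries, in replicate order, against 27922 to 43814 FPKM in WT. KO replicates 2 and 3 thus stood apart, and KO replicate 1 lay just below the WT libraries. Leukocyte markers summed to 360, 711 and 146 FPKM in KO against 164 to 208 FPKM in WT, with 3 of 9 tested ones higher. The 6 erythroid markers in the data summed to 0.186 to 0.363 FPKM in KO against 0.514 to 0.580 FPKM in WT. Among tested alpha and delta cell markers 2 of 6 and 1 of 3 were lower. Of 5 endothelial markers 1 was higher and 2 were lower, and of 5 duct markers 1 was higher. KO replicate 1 was also outside the WT range for alpha (13581 FPKM), delta (4639 FPKM) and leukocyte (360 FPKM) markers. Adipocyte markers summed to 12.5 to 16.7 FPKM in KO against 6.805 to 8.67 FPKM in WT, with both tested ones higher and with Cfd and Plin1 listed at 0, and stellate markers to 3.33 to 6.71 FPKM against 7.82 to 10.2 FPKM, with 2 of 5 lower. The part of these cells in the carriers' differences was not tested. Beside the counts of markers called, 19.6% of all tested genes were lower in KO and 20.3% higher by the same fit. In such bulk samples fewer cells of a type and less RNA per cell cannot be told apart. Total depth is unknown. The spacing of the lowest values (below 0.06 FPKM) gave an estimate of how many fragments stood behind 1 FPKM: relative to WT replicate 1 it was 59.5% in KO replicate 3 and 89.4% to 119% in the others, so low values rested on the fewest fragments in KO replicate 3.

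Of the 33 carriers tested, 8 were lower and 3 higher in KO by limma at an adjusted p under 0.05. The falls were led by Slc25a25, a calcium-regulated carrier of ATP-Mg and phosphate, and Slc25a42, a carrier of coenzyme A and adenine nucleotides; the rises were Slc25a24, Slc25a36 and Slc25a46. Over all 11669 tested genes 39.9% were called, 20.3% higher and 19.6% lower, against 33.3% of the carriers, 9.09% higher and 24.2% lower. The share of carriers called was near the background and is no result about the family. Both groups of a carrier lay apart, without overlap, for 13 of 33 (4 higher and 9 lower in KO), or 39.4%, against 56.3% of all tested genes, 27.8% higher and 28.5% lower. The median log2 difference was -0.08 over the carriers and -0.01 over all tested genes. Among the carriers 4 were both called and at least 0.5 log2 units apart, or 12.1%, against 14.2% of all tested genes. All log2 differences here are KO minus WT on the scale of log2(FPKM + 1), which understates changes of low values.

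**Figure D1:**
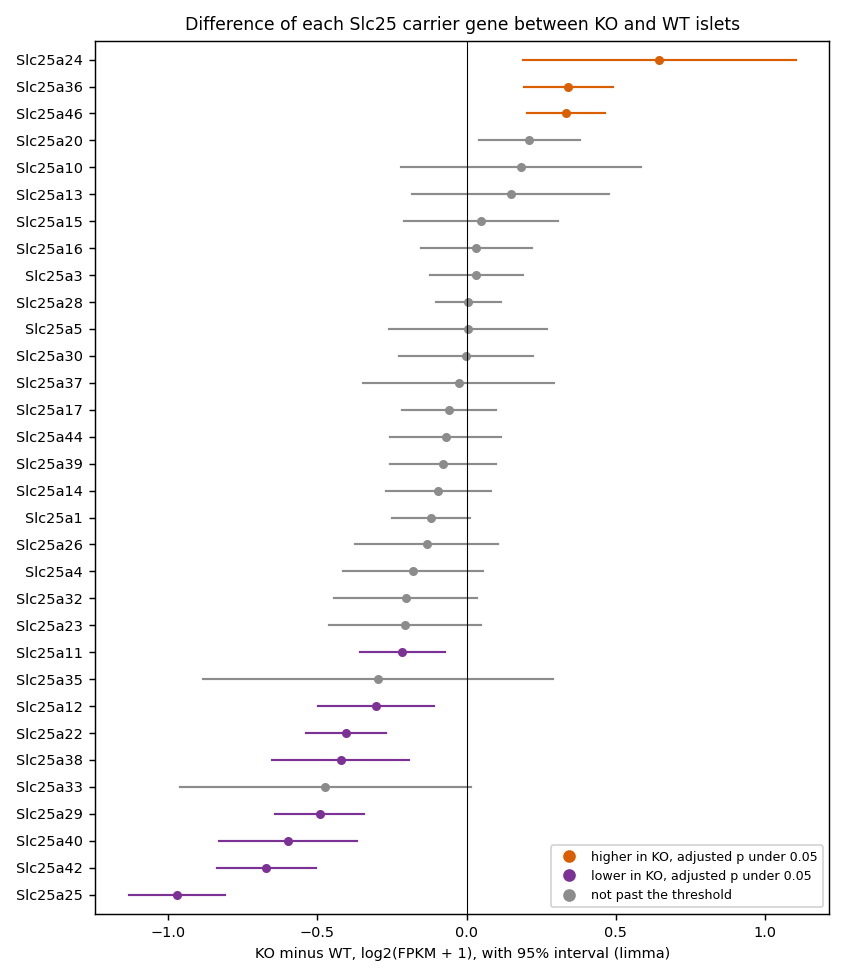
Difference between KO and WT islets for 32 of the 33 carriers, as KO minus WT on the scale of log2(FPKM + 1), with the 95% interval from limma (3 libraries per group). Slc25a25 lies farthest to the left at -0.97 and Slc25a24 farthest to the right at 0.65, and the carriers in grey did not pass the threshold.

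Promoters are shown for the carriers with a full cAMP response element (TGACGTCA), because both belonged to the called carriers and moved in opposite directions. This element binds the CREB family, which cAMP signalling activates. The windows searched were the 250 bases before each annotated start in RefSeq (build GRCm38.p6), which 26 of the 33 tested carriers had, in 34 windows. Of these 26 carriers 8 were called lower and 2 higher, so that both shown were called is no result about the element. Whether the element bears on their differences was not tested. The element was in 2 of these 34 windows and in 1.55% of all 32851 windows. The capitals mark it. The first window belongs to the innermost of 3 starts of Slc25a25, at chr2:32424067-32424316 on the minus strand; it lies inside the gene and overlaps no GENCODE exon, so it is intronic to the longer transcripts. The element lies 150 to 143 bases before that start. The second is upstream of Slc25a36, at chr9:97111158-97111291 on the minus strand, cut where a GENCODE first exon begins; there the element lies 161 to 154 bases before the RefSeq start and 45 to 38 before the GENCODE one.
Slc25a25: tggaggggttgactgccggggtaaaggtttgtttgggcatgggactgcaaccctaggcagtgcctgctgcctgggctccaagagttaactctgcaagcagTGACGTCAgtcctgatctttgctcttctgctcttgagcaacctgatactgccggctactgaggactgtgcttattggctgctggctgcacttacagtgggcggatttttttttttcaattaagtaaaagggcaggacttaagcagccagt
Slc25a36: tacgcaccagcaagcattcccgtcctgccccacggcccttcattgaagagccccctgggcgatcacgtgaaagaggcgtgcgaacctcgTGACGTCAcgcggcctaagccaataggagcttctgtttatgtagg
A match is a description of letters, and the FPKM do not tell which start of Slc25a25 was used. The core TGACG, which the full element contains, was in 10 of the 34 windows and 17.8% of all windows. The E-box CACGTG was in 7 and 6.02%, and CCGGAAG, bound by GABPA, in 5 and 6.91%. The NRF1 palindrome, by its name alone, and TNAAGGTCA, bound by ERR receptors, were in 0 of the 34, and in 0.782% and 1.14% of all windows. Each motif was searched on both strands.

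The family spanned listed levels from 0 to above 200 FPKM. Ins2, an insulin gene, was also listed at 0 in every library of these islets, so a listed 0 need not mean that no transcript was there. Slc25a3, the phosphate carrier, was the most abundant, at 221, 228 and 221 FPKM in KO replicates 1 to 3, against 226, 210 and 219 FPKM in WT replicates 1 to 3. Its groups overlapped, and the 95% interval of its log2 difference ran from -0.12 to 0.19. Slc25a5, an ADP/ATP carrier of proliferating and many other cells, followed at 161, 181 and 217 FPKM in KO, against 186, 178 and 190 FPKM in WT. Slc25a4, the ADP/ATP carrier best known from heart and muscle, was at 142, 109 and 119 FPKM in KO, against 138, 140 and 140 FPKM in WT. The KO libraries spread more than the WT libraries for both, and neither passed (adjusted p of 0.98 and 0.18 by limma). Without KO replicate 1, Slc25a4 was called lower (log2 difference -0.29, adjusted p = 0.01); in KO replicate 1, the only KO library without high acinar transcripts, it was above all 3 WT libraries. Skeletal muscle markers were low, summing to 2.41 to 3.31 FPKM in KO and 3.01 to 3.23 FPKM in WT. Together the 3 most abundant carriers made up 51.1% to 52.1% of the family's summed FPKM in KO, against 49.2% to 49.6% in WT. That sum was 1027, 996 and 1082 FPKM in KO replicates 1 to 3, against 1110, 1072 and 1108 FPKM in WT. Outside acinar and insulin rows the family took 0.241% to 0.263% of the FPKM in KO, against 0.267% to 0.273% in WT. Of the 33 carriers, 4 averaged above 100 FPKM, 14 between 10 and 100, and 15 between 1 and 10. Neighbours often did not keep this order in every library. For 21 of 32 neighbouring pairs in KO and 15 in WT, the lower carrier's highest library was not below the upper carrier's lowest. Some of these pairs were apart in the reverse order, such as Slc25a44 above Slc25a25 in KO. In the order of the means 5 pairs were separate in both groups. Among them were Slc25a3 above Slc25a5, Slc25a5 above Slc25a4, Slc25a39 above Slc25a1 and Slc25a17 above Slc25a11.

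**Figure D2:**
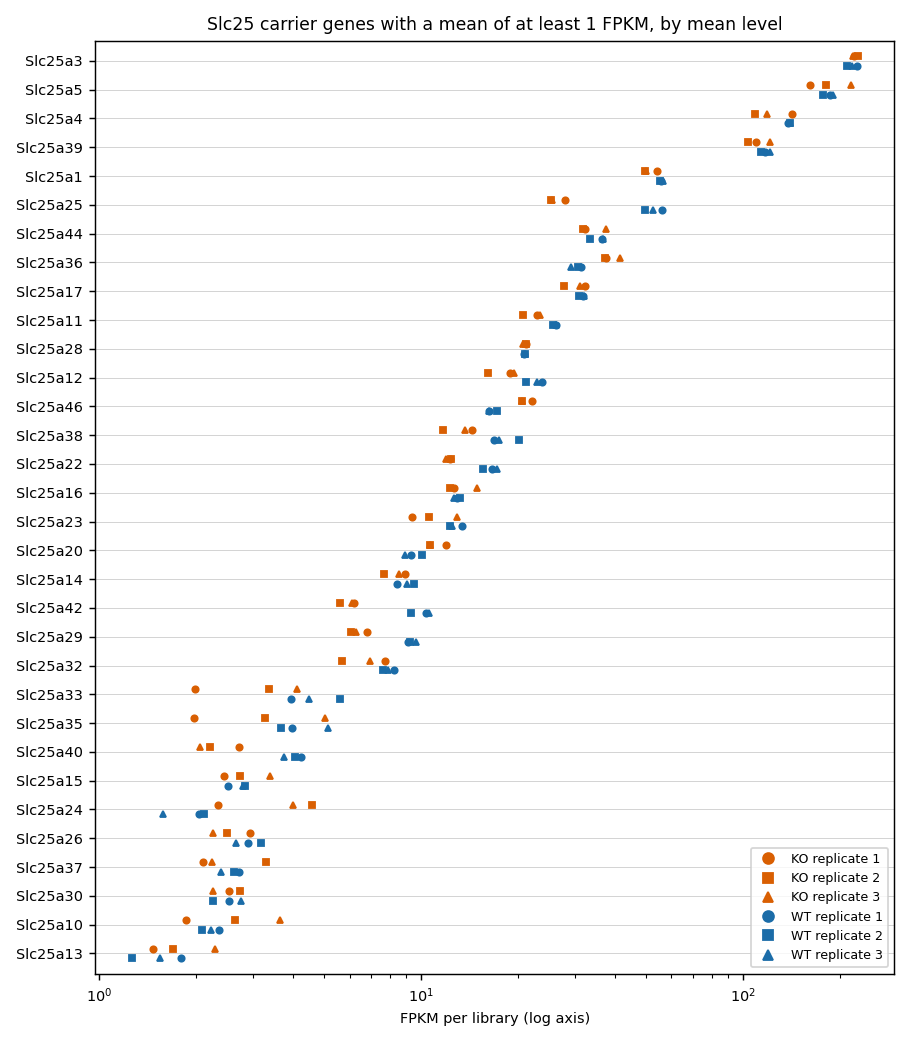
FPKM of 32 of the 33 carriers in every library on a log axis, ordered by the mean over the 6 libraries, with KO points drawn above WT points in each row. Slc25a3, Slc25a5, Slc25a4 and Slc25a39 lie above 100 FPKM, and Slc25a25 stands out by the gap between its KO and WT points.

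Among the carriers of ATP-Mg and phosphate, which let mitochondria load or release adenine nucleotides when cytosolic calcium rises, the paralogues moved in opposite directions. Slc25a25 was at 28.1, 25.4 and 25.6 FPKM in KO replicates 1 to 3, against 56.0, 49.5 and 52.4 FPKM in WT replicates 1 to 3. The KO values lay close together at 50.1% of the WT mean, and the groups were far from overlapping. The mean was 26.4 ± 1.51 FPKM in KO and 52.6 ± 3.26 FPKM in WT (SD, n = 3 each), and the log2 difference was -0.97 (SE 0.07, adjusted p = 0.00037 by limma). Permuting the 6 labels for Slc25a25 alone (exact, two-sided) gave p = 0.1, which 3 against 3 libraries cannot go below, and the same held for each of the 11 called carriers. Slc25a25 was the sixth most abundant carrier over the 6 libraries, and it spans 32414487 to 32451470 on chromosome 2 (GRCm38). Slc25a24, a paralogue with the same substrates, was at 2.34, 4.58 and 4.0 FPKM in KO, against 2.04, 2.11 and 1.58 FPKM in WT. The groups did not overlap, but KO replicate 1 was just above WT and the acinar-rich KO replicates 2 and 3 were well above it. Its log2 difference was 0.65 (SE 0.19, adjusted p = 0.036), and 0.21 in KO replicate 1 alone against WT (adjusted p = 0.28). The call of Slc25a24 was lost without KO replicate 2 (adjusted p = 0.099), KO replicate 3 (0.086), WT replicate 1 (0.089), WT replicate 2 (0.073) or WT replicate 3 (0.12), with no filter on low values (0.066) and with an acinar covariate, the mean log2 level of the acinar markers (0.19). The part of acinar transcripts in it was not tested further. Slc25a23, the third paralogue, was at 9.40, 10.6 and 13.0 FPKM in KO, against 13.4, 12.3 and 12.5 FPKM in WT. KO replicates 1 and 2 were below WT and KO replicate 3 was within it (adjusted p = 0.16; 0.022 without KO replicate 3 and 0.017 in KO replicate 1 alone).

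The carriers of the malate-aspartate shuttle and of glutamate were lower in 3 of 4 tested members and higher in 0, where 19.6% of all tested genes were lower, and 2 of these 3 calls were lost without single libraries. Their median log2 difference was -0.26. Slc25a22, a mitochondrial glutamate carrier, was at 12.3, 12.4 and 11.9 FPKM in KO replicates 1 to 3, against 16.6, 15.6 and 17.2 FPKM in WT replicates 1 to 3. It fell with a log2 difference of -0.40 (SE 0.06, adjusted p = 0.0028 by limma), and the KO libraries differed little among themselves. Among the 44 Slc25a rows it alone was on chromosome 7, where Ffar3 lies, at a distance of 111 Mb. Slc25a12, the aspartate-glutamate carrier aralar, was at 18.9, 16.2 and 19.4 FPKM in KO, against 23.7, 21.1 and 22.97 FPKM in WT. Slc25a11, which exchanges oxoglutarate for malate, was at 22.99, 20.8 and 23.5 FPKM in KO, against 26.3, 25.8 and 26.3 FPKM in WT. Both groups lay apart for each, with log2 differences of -0.30 (adjusted p = 0.026) and -0.22 (adjusted p = 0.029), but these calls were lost without single libraries. Slc25a12 had an adjusted p of 0.0504 without KO replicate 2, 0.098 without WT replicate 1 and 0.09 without WT replicate 3. Slc25a11 had 0.058 without KO replicate 2, 0.099 without WT replicate 1, 0.069 without WT replicate 2 and 0.098 without WT replicate 3. In KO replicate 1 alone the adjusted p of Slc25a12 and Slc25a11 was 0.072 and 0.075, and with the acinar covariate 0.094 and 0.1. Slc25a13, the aspartate-glutamate carrier citrin of liver, was far lower, at 1.47, 1.70 and 2.29 FPKM in KO, against 1.79, 1.26 and 1.55 FPKM in WT. The groups of Slc25a13 overlapped, and its KO values were in the order of the acinar level. The same order held for Slc25a5, Slc25a10, Slc25a15, Slc25a23, Slc25a33 and Slc25a35, and the reverse order for Slc25a20, Slc25a26, Slc25a28, Slc25a40 and Slc25a46. The part of acinar transcripts in these orders was not tested. The oxodicarboxylate carrier Slc25a21 was listed at 0 in every library, and the second glutamate carrier Slc25a18 was at most 0.160 FPKM.

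Carriers of amino acids and carnitine had 5 tested members, of which 2 fell and 0 rose, against 19.6% and 20.3% of all tested genes. Slc25a29, a carrier of basic amino acids, was at 6.77, 6.05 and 6.29 FPKM in KO replicates 1 to 3, against 9.13, 9.27 and 9.68 FPKM in WT replicates 1 to 3. It fell with a log2 difference of -0.49 (SE 0.06, adjusted p = 0.0021 by limma), to 68.0% of the WT mean. Slc25a38, which imports glycine for haem synthesis, was at 14.5, 11.7 and 13.7 FPKM in KO, against 16.9, 20.1 and 17.4 FPKM in WT. It fell with a log2 difference of -0.42 (adjusted p = 0.015); it was below WT in KO replicate 1 alone too, but without passing (-0.31, adjusted p = 0.081), nor with the acinar covariate (adjusted p = 0.078). Slc25a20, which exchanges carnitine for acylcarnitines and so feeds fatty acid oxidation, was at 11.96, 10.6 and 10.6 FPKM in KO, against 9.31, 10.1 and 8.95 FPKM in WT. Its groups did not overlap, yet it just missed the threshold (log2 difference 0.21, adjusted p = 0.053), and it passed in KO replicate 1 alone (0.31, adjusted p = 0.047). Slc25a44, which carries branched-chain amino acids, and the ornithine carrier Slc25a15 overlapped between the groups, at 31.8 to 37.6 FPKM in KO against 33.5 to 36.7 FPKM in WT and at 2.44 to 3.41 against 2.51 to 2.85 FPKM.

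Among 8 carriers of nucleotides and cofactors, all tested, 1 fell and 1 rose, against 19.6% and 20.3% of all tested genes. Slc25a42 was at 6.18, 5.61 and 6.13 FPKM in KO replicates 1 to 3, against 10.4, 9.34 and 10.6 FPKM in WT replicates 1 to 3. The KO mean was 59.1% of the WT mean with no overlap (log2 difference -0.67, SE 0.07, adjusted p = 0.0011 by limma). Slc25a36, a carrier of pyrimidine nucleotides, was at 37.7, 37.3 and 41.6 FPKM in KO, against 31.5, 30.7 and 29.2 FPKM in WT. Every KO library was above every WT library, and the KO mean was 128% of the WT mean (log2 difference 0.34, SE 0.06, adjusted p = 0.0071). Its relative Slc25a33, also a pyrimidine nucleotide carrier, ran the other way at 1.99, 3.36 and 4.13 FPKM in KO, against 3.95, 5.61 and 4.47 FPKM in WT. KO replicate 1 was the lowest of the 6 and KO replicate 3 overlapped WT, so Slc25a33 did not pass over all libraries (log2 difference -0.47, adjusted p = 0.1), but did in KO replicate 1 alone (-0.92, adjusted p = 0.014) and without KO replicate 3 (-0.64, adjusted p = 0.043). The folate carrier Slc25a32, at 5.70 to 7.73 FPKM in KO against 7.63 to 8.26 FPKM in WT, was called lower without KO replicate 1 (adjusted p = 0.036; 0.14 with all libraries). Slc25a26, the carrier of S-adenosylmethionine, Slc25a17 and Slc25a16 had groups that overlapped and log2 differences of -0.13, -0.06 and 0.03.

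Carriers tied to iron and glutathione included the steadiest member of the family. Slc25a28, the mitoferrin of non-erythroid cells, was at 21.2, 21.2 and 20.8 FPKM in KO replicates 1 to 3, against 20.9, 21.0 and 21.0 FPKM in WT replicates 1 to 3. The whole range was 1.86% of its mean, and the 95% interval of its log2 difference ran from -0.10 to 0.11. The erythroid mitoferrin Slc25a37 was at 2.11 to 3.31 FPKM in KO against 2.40 to 2.72 FPKM in WT. Slc25a40 was at 2.71, 2.21 and 2.06 FPKM in KO, against 4.25, 4.07 and 3.76 FPKM in WT. It fell with no overlap to 57.8% of the WT mean (log2 difference -0.60, SE 0.10, adjusted p = 0.0047 by limma). Its relative Slc25a39, which mitochondria need to import glutathione, was at 110, 104 and 121 FPKM in KO, against 118, 114 and 122 FPKM in WT. Those groups overlapped, and Slc25a39 did not pass (adjusted p = 0.41).

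Of the remaining tested carriers 1 rose, where 20.3% of all tested genes did. Slc25a46, an outer membrane protein of mitochondrial fusion and fission, was at 22.1, 20.7 and 20.7 FPKM in KO replicates 1 to 3, against 16.2, 17.2 and 16.3 FPKM in WT replicates 1 to 3. The KO mean was 128% of the WT mean, with no overlap (log2 difference 0.33, SE 0.06, adjusted p = 0.0051 by limma). The citrate carrier Slc25a1 was at 54.0, 49.8 and 50.0 FPKM in KO, against 55.5, 55.4 and 56.3 FPKM in WT. Its groups did not overlap but lay close, and it did not pass (log2 difference -0.12, adjusted p = 0.12), except without KO replicate 1 (-0.16, adjusted p = 0.038). The dicarboxylate carrier Slc25a10 was at 1.87, 2.65 and 3.65 FPKM in KO, against 2.36, 2.08 and 2.22 FPKM in WT. Its KO values were in the order of the acinar level, as for the carriers listed with Slc25a13. Slc25a35, whose substrate is unsettled, was at 1.98, 3.29 and 5.05 FPKM in KO, against 3.98, 3.67 and 5.16 FPKM in WT; it passed in KO replicate 1 alone (log2 difference -0.81, adjusted p = 0.019) but not over all libraries (-0.30, adjusted p = 0.36). The uncoupling protein-like Slc25a14 and Slc25a30 overlapped between the groups, at 7.68 to 8.89 FPKM in KO against 8.44 to 9.50 FPKM in WT and at 2.26 to 2.74 against 2.25 to 2.76 FPKM.

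**Figure D3:**
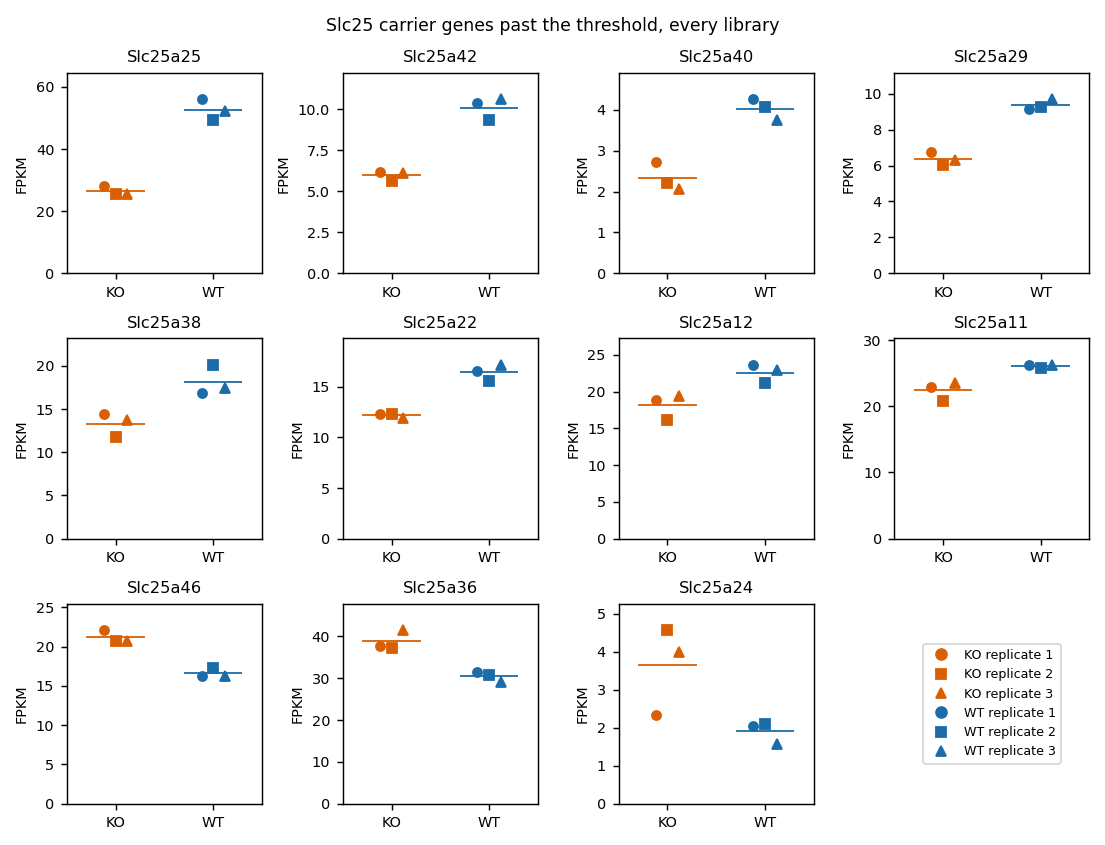
FPKM in every library for the 11 carriers past the threshold, with KO left of WT and a line at each group's mean (n = 3). No panel has overlapping groups, and Slc25a24 is the one in which KO replicate 1 lies far below the other KO libraries.

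The lowest tested carrier was Slc25a13, with a mean of 1.68 FPKM over the 6 libraries (1.82 in KO and 1.53 in WT). Each tested carrier had a mean above 1 FPKM in both groups. Of the 11 rows below the limit, Slc25a27, known as UCP4, was nearest at 0.897 FPKM. Slc25a45 came next with 0.451, 1.42 and 1.98 FPKM in KO replicates 1 to 3, against 0.389, 0.406 and 0.381 FPKM in WT replicates 1 to 3. It was above WT most in the acinar-rich libraries. Slc25a47 averaged 0.563 FPKM, and Slc25a31, the testis ADP/ATP carrier, 0.0923 FPKM. Slc25a2, Slc25a18, Slc25a34, Slc25a43 and Slc25a48 averaged between 0.0151 and 0.0826 FPKM and were at or below 0.199 FPKM in every library. Slc25a21 and Slc25a41 were listed at 0 in all 6.

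KO replicates 2 and 3 were rich in acinar transcripts, so the carriers were also compared in KO replicate 1 alone, whose acinar level was below that of each WT library. That comparison takes 1 library to vary like the WT libraries and is part of the whole one, not a second experiment. It called 8 carriers lower and 4 higher, against 10.9% and 15.2% of all tested genes; beside the 7 named below, Slc25a23, Slc25a33 and Slc25a35 were among the lower and Slc25a20 among the higher. With the acinar covariate, a fit that leans on the same library, 8 were lower and 3 higher, against 9.69% and 13.2% of all tested genes, and these 4 carriers were again among them. Slc25a25, Slc25a42, Slc25a40, Slc25a29, Slc25a22, Slc25a36 and Slc25a46 were called in both of these fits, and these 7 were called in every alternative that tested them, each library left out included. The log2 difference of Slc25a25 stayed between -1.02 and -0.88 over those alternatives, and that of Slc25a42 between -0.75 and -0.63. The range was -0.55 to -0.41 for Slc25a29 and -0.45 to -0.37 for Slc25a22. It was 0.29 to 0.37 for Slc25a36 and 0.30 to 0.40 for Slc25a46. Slc25a40 had the widest range of the 7, -0.77 to -0.44, against -0.60 in the main fit. Its fall was largest with 0.1 FPKM added before the logarithm, and smallest when KO replicate 1 stood alone. Adjusting for acinar markers gave -0.46 for Slc25a40. Slc25a24, Slc25a11, Slc25a12 and Slc25a38 passed in neither fit.

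**Figure D4:**
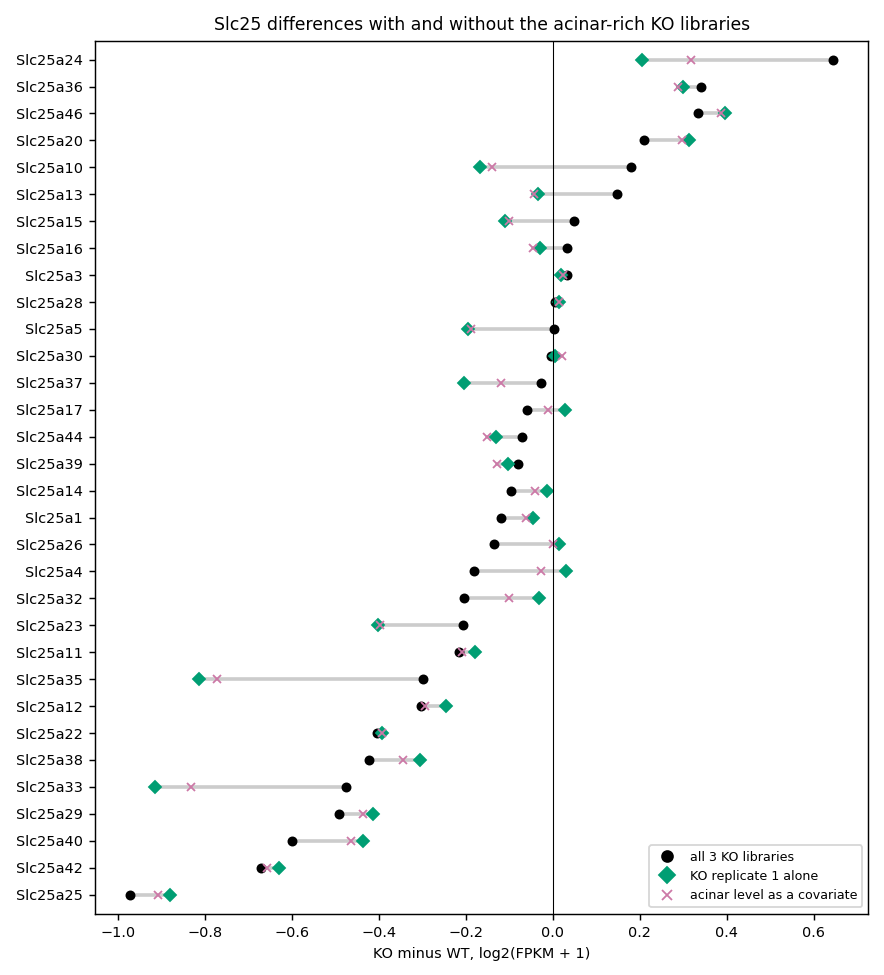
KO minus WT on the scale of log2(FPKM + 1) for 32 of the 33 carriers over all 3 KO libraries, in KO replicate 1 alone, and adjusted for the acinar markers; grey bars join the values of a carrier. The values lie close for Slc25a25 and Slc25a42 and apart for Slc25a24, Slc25a33 and Slc25a35.

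The printed ratios of related carriers within a library do not depend on scaling between libraries. The tests used log2 ratios after adding 1 FPKM to both members, which depend on it somewhat at low values. Of 7 pairs with both members tested, 5 had ratios that did not overlap between the groups. Singly, 56.3% of all tested genes did not overlap, and no share over other pairs was computed. Each of the 5 pairs holds a called carrier, and Slc25a24 recurs among them, so the count is no separate result. The exact two-sided permutation test gave p = 0.1 for each of the 5, the smallest possible, and 0.14 after adjustment over the 7 pairs. Slc25a24 stood to Slc25a25 at 0.0834, 0.180 and 0.157 in KO replicates 1 to 3, against 0.0364, 0.0427 and 0.0302 in WT replicates 1 to 3. Slc25a39 stood to Slc25a40 at 40.4, 46.8 and 58.9 in KO, against 27.6, 28.0 and 32.4 in WT. Both ratios were higher in every KO library than in any WT library, and KO replicate 1 had the lowest KO value of each. Slc25a33 stood to Slc25a36 at 0.0528, 0.0902 and 0.0992 in KO, against 0.125, 0.183 and 0.153 in WT. Slc25a23 stood to Slc25a24 at 4.01, 2.31 and 3.24 in KO, against 6.57, 5.84 and 7.90 in WT. Slc25a12 stood to Slc25a13 at 12.9, 9.50 and 8.49 in KO, against 13.2, 16.7 and 14.9 in WT, a gap that in KO replicate 1 was narrow. Aralar was thus the more abundant aspartate-glutamate carrier in all 6 libraries. The ratio of Slc25a4 to Slc25a5, 0.883, 0.604 and 0.547 in KO against 0.743, 0.786 and 0.734 in WT, overlapped (exact p = 0.4), as did that of Slc25a37 to Slc25a28 (exact p = 0.9).

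**Figure D5:**
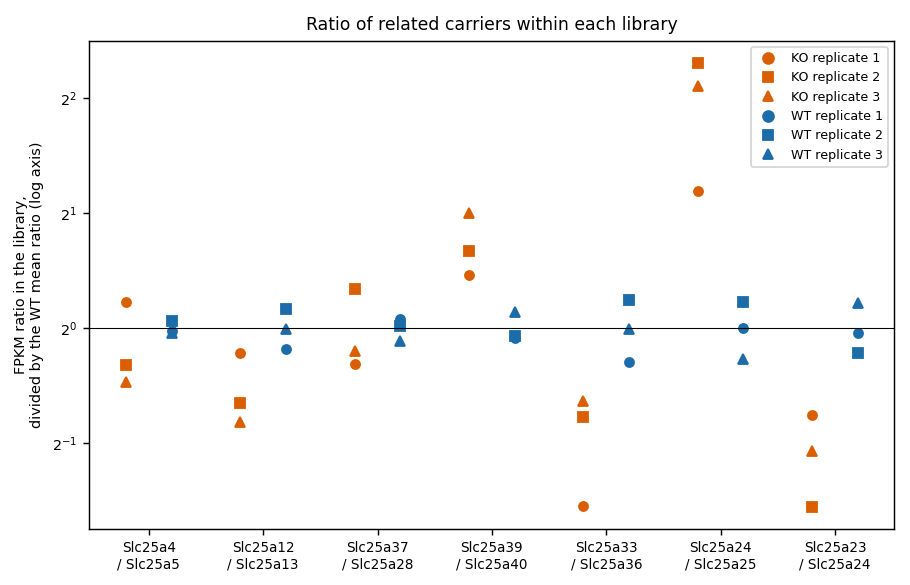
FPKM ratio of related carriers in every library, divided by the WT mean of that ratio, on a log axis with KO points left of WT points. Slc25a24 over Slc25a25 lies highest in KO, and Slc25a33 over Slc25a36, Slc25a23 over Slc25a24 and Slc25a12 over Slc25a13 lie below WT in every KO library.

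Genes that work beside the carriers were described by the same fit. Over 7 lists 21 of 58 tested genes were called, or 36.2%, near the 39.9% of all tested genes, so these counts are no result about the lists. Carrier-family proteins outside the Slc25a numbering had 5 tested rows, of which 3 fell and 1 rose, where 19.6% of all tested genes fell and 20.3% rose. Mtch1, an outer membrane relative, was at 136, 112 and 123 FPKM in KO, against 168, 159 and 166 FPKM in WT (log2 difference -0.41, adjusted p = 0.0097 by limma). Mcart6, now named Slc25a53, was at 4.06, 3.32 and 2.76 FPKM in KO, against 5.28, 5.49 and 5.99 FPKM in WT (adjusted p = 0.0085). Both were lower in every KO library. The other calls of this list were lost in some alternatives. Ucp2, the uncoupling protein of beta cells, was at 67.3, 66.0 and 63.3 FPKM in KO, against 80.1, 79.9 and 71.6 FPKM in WT (log2 difference -0.23, adjusted p = 0.029), and Mcart1, now Slc25a51, a carrier of NAD, at 39.0, 40.8 and 45.1 FPKM in KO, against 35.5, 33.5 and 35.4 FPKM in WT (0.25, adjusted p = 0.025). Mtch2 overlapped, at 30.7 to 32.7 FPKM in KO against 31.1 to 32.1 FPKM in WT. The mitochondrial pyruvate carrier genes, listed as Brp44 and Brp44l, and the 3 outer membrane channel genes Vdac1, Vdac2 and Vdac3 gave 0 calls in 5, and their groups overlapped.

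Of 7 shuttle enzymes 2 fell and 2 rose, where 39.9% of all tested genes were called in either direction. Gpd2, the mitochondrial enzyme of the glycerophosphate shuttle, was at 15.7, 13.9 and 16.0 FPKM in KO, against 24.5, 23.5 and 26.6 FPKM in WT (log2 difference -0.68, adjusted p = 0.0013 by limma). Got1, the cytosolic aminotransferase of the malate-aspartate shuttle, was at 27.3, 28.3 and 28.0 FPKM in KO, against 19.8, 20.3 and 21.2 FPKM in WT (0.43, adjusted p = 0.0016). Neither pair of groups overlapped. Of 13 tested enzymes of pyruvate, citrate and glutamate cycling 3 rose and 3 fell. Idh1, the cytosolic isocitrate dehydrogenase, was at 29.1, 38.7 and 40.4 FPKM in KO, against 10.9, 11.3 and 10.7 FPKM in WT (1.62, adjusted p = 0.0004). Me1, the cytosolic malic enzyme, rose with a log2 difference of 0.66 (adjusted p = 0.0031) and Glud1, glutamate dehydrogenase, with 0.34 (adjusted p = 0.009), while Acly, which splits exported citrate, fell by 0.48 (adjusted p = 0.0062). In the import machinery of carriers 1 of 13 rose and 2 fell, led by the pore gene Tomm40 at 16.7, 15.7 and 16.0 FPKM in KO, against 19.6, 19.9 and 19.8 FPKM in WT (-0.28, adjusted p = 0.0066). The calcium uniporter list had 1 rise in 6, and the iron and haem list 1 rise and 2 falls in 9. Of the 21 genes called, 9 were called in every alternative that tested them: Mtch1, Mcart6, Gpd2, Got1, Idh1, Me1, Glud1, Acly and Tomm40. The other 12 lost the call in at least 1 fit without a single library, among them Ucp2, Mcart1, Mdh2, Gpd1, Pcx, Timm13, Tomm70a, Iscu, Cpox and the uniporter gene Ccdc109a. None of the 12 passed in KO replicate 1 alone.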

How the data were processed

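Gene expression was measured by RNA sequencing of total RNA from islets. TopHat2 2.0.8b, Cuffdiff 2.1.1 and build mm10 (GRCm38) are named in the submitters' processing notes; for annotation, strand and library scaling nothing is given in the sources used here. The authors' deposited values were read as FPKM, since Cuffdiff writes that unit and they are decimals whose sums ran from 416935 to 1056340; the files do not name it. FPKM splits fragments between near-identical copies by estimate, which touches the ADP/ATP carriers and their pseudogenes. Median-of-ratios factors of 0.995 to 1.00 show that the values were already alike in scale across most genes, although their sums differed.

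Groups and replicate numbers came from the titles. Rows with a mean of at least 1 FPKM were tested on log2(FPKM + 1) with limma 3.58.1 in R 4.3.3 (lmFit, eBayes with trend, group only, two-sided), with Benjamini-Hochberg adjustment over 11669 rows and a threshold of 0.05. The limma p-values rest on the spread between 3 libraries per group, moderated over all tested genes, and not on that between single animals. Ratios used exact permutation tests. Values were given per library for called carriers at least 0.5 log2 units apart, the 6 most abundant, and the paired ones; others named with values per library were chosen after their values were seen. The carriers, lists, pairs and alternatives were chosen with earlier results of these data known; the motifs and printed promoters were chosen after the values were seen. Acinar-rich libraries and the genes named outside the family were likewise known. Positions and promoter sequences came from RefSeq (GRCm38.p6) and exons from GENCODE M21. Data were simulated with the real means and spreads of 11669 genes and independent noise, with 200 genes changed in each of 5 runs. On these limma recovered 54.6% of changes of 0.5 log2, 90.1% of 1 and 97.9% of 2, with 5.05% false calls. In the real data 39.9% of the tested genes were called, so these rates need not hold there. Python 3.11.15, pandas 2.3.3, numpy 2.4.6 and matplotlib 3.10.9 were also used. A few genes counted in the totals are not reported here by name or drawn.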

Additional observations from a re-analysis of the deposited data

How the results depend on the processing

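Of the 11 called carriers, 7 kept their call and direction in each alternative that tested them, 16 for Slc25a40 and 17 for the others, and 4 (Slc25a11, Slc25a12, Slc25a38 and Slc25a24) lost it in at least 1; 8 carriers not called gained a call in at least 1. With the acinar covariate the genes called were 2668 (1537 higher and 1131 lower in KO), and in KO replicate 1 alone to 3041 (1267 lower), against 4657, 2368 and 2289; the cause was not tested. Without single libraries 2481 to 5727 genes were called, 1381 to 2890 higher and 1100 to 2837 lower, and 6 to 11 carriers were lower and 2 or 3 higher. With no filter on low values 9 carriers were lower, Slc25a31 among them, and 2 higher.

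Of the 22 carriers not called, 11 kept their sign in every alternative that tested them and 11 changed it in at least 1. In KO replicate 1 alone the log2 difference was -0.20 for Slc25a5, 0.031 for Slc25a4, 0.028 for Slc25a17, -0.030 for Slc25a16, -0.11 for Slc25a15, 0.013 for Slc25a26, 0.0061 for Slc25a30, -0.17 for Slc25a10 and -0.033 for Slc25a13. With the acinar covariate it was -0.19 for Slc25a5, -0.045 for Slc25a16, -0.10 for Slc25a15, 0.021 for Slc25a30, -0.14 for Slc25a10 and -0.042 for Slc25a13. With equal sums outside acinar and insulin rows it was -0.012 for Slc25a5 and -0.010 for Slc25a28. Quantile normalization gave -0.036 for Slc25a28, -0.0087 for Slc25a16 and -0.00013 for Slc25a15. Array weights gave 0.030 for Slc25a37, and median-of-ratios factors 0.0012 for Slc25a30. Without single libraries the range was -0.11 to 0.10 for Slc25a5, -0.10 to 0.00086 for Slc25a17, -0.047 to 0.081 for Slc25a16, -0.051 to 0.13 for Slc25a15, -0.17 to 0.061 for Slc25a37, -0.058 to 0.048 for Slc25a30, and -0.18 to 0.060 for the log2 ratio of Slc25a37 to Slc25a28.

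Same-numbered libraries did not deviate together (correlations of -0.21, -0.09 and 0.03), so the numbers were not taken to pair them. With the replicate block 3865 genes were called, 8 carriers lower and 2 higher, and Slc25a24 did not pass (adjusted p = 0.051). Limits are the 3 libraries per group, the acinar-rich KO replicates 2 and 3, and the lowest estimated fragments per FPKM, in KO replicate 3. That estimate is relative, so how many fragments stood behind values near 2 FPKM is unknown.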
